A study of Rattus norvegicus with 6 samples.

Results

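Chemokines are small secreted proteins that steer leukocytes along a gradient by binding G protein-coupled receptors, and they are named by the spacing of their first cysteines (CXC, CC, CX3C or C). Cxcl14 is made without an inflammatory trigger by many epithelia and by fibroblasts, whereas Cxcl1, Cxcl2, Ccl2, Ccl3, Ccl4, Ccl5 and Ccl20 are mostly induced during inflammation, several of them through NF-kappaB. Cxcl12 is a stromal chemokine that binds Cxcr4. The set described here is a list of 9 chemokine genes, 7 of which are among the 4736 genes named on the array. Cxcl14 was chosen by its intensities in this study, because one of its probe sets lay lower on all 3 high corn oil arrays than on any low corn oil array, so its diet difference is a description and carries no test. The other 8 were listed by name, though with earlier results of these data known. The 7 genes had 9 probe sets in all: 2 each for Cxcl14 and Ccl2 and 1 each for Cxcl2, Ccl3, Ccl4, Ccl5 and Ccl20. The annotation used named no probe set for Cxcl1 or Cxcl12, which does not show that the array lacks one. Some probe sets had no gene name, and 1 of these may be for Cxcl1.

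RNA came from the dorsolateral prostate of male rats of the inbred ACI strain that had eaten a high (3 rats) or a low (3 rats) corn oil diet for 18 months. The labels also give the age as 18 months. Each rat had its own array. The free-text description of high corn oil replicate 3 names the low diet while its title and source name place it in the high group, where it was kept. The tissue label was checked against markers of prostate epithelium: the secretory protein genes Pbsn, Msmb and Tgm4 and the luminal keratin genes Krt8 and Krt18 were above noise on all 6 arrays, as were the basal cell genes Krt5, Krt14 and Ngfr. Of the listed genes with a probe set, 8 of 12 for secretory epithelium and 3 of 5 for basal epithelium were above noise on all arrays. The 8 include Svs4, Sbp and Epcam. Levels were uneven: Pbsn was lowest in high corn oil replicates 2 and 3 and Sbp in replicate 1 of that diet, as given below. Being above noise does not show that the arrays sampled a like mix of tissue. The secretory list genes Folh1, Spink1 and Svs5 and the basal list gene Cd44 were below noise on every array. Acp3, prostatic acid phosphatase, and the basal cell factor gene Tp63 were at or below 0 on every array.

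The arrays differed in noise, and high corn oil replicates 2 and 3 stood apart from the other 4. As no detection calls were used, noise was read on each array from its values below 0, as the 95th percentile of their size. It was 1232, 2028 and 1743 units in high corn oil replicates 1 to 3 and 1048, 1052 and 1216 in low corn oil replicates 1 to 3, so the bar was highest on 2 of the high corn oil arrays. Over all probe sets but controls, 26.6% were above noise on all 6 arrays. Across tested probe sets, the Spearman correlation of these 2 arrays was 0.932 with each other, 0.857 to 0.897 with the low corn oil arrays and 0.869 and 0.881 with high corn oil replicate 1. The latter array was at 0.927 to 0.950 with the low corn oil arrays, which were at 0.927 to 0.954 among themselves. The dim values below are therefore given array by array.

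Promoter windows of 300 bases, from 250 before to 50 after the annotated start, were available from RefSeq (GRCr8) for 5 of the 9 genes: Cxcl14, Cxcl12, Cxcl1, Cxcl2 and Ccl20. The windows of Cxcl14, the brightest member with a named probe set relative to noise, and of 2 inflammation-induced members are printed to show how differently their upstream DNA is built. All are written 5′ to 3′ on the gene's strand, and capitals mark matches on either strand to a TATA box (TATAAA), a GC box (GGGCGG), an AP-1 site (TGANTCA) or the NF-kappaB consensus.
Cxcl14, chr17:8322900-8323199, plus strand: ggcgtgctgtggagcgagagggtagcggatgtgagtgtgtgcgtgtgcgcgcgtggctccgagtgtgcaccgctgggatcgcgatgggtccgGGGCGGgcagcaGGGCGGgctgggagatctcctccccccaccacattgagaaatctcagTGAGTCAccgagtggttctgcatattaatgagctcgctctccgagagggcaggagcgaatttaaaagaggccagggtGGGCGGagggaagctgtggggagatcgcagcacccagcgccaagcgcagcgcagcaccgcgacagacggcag
Cxcl2, chr14:17467206-17467505, minus strand: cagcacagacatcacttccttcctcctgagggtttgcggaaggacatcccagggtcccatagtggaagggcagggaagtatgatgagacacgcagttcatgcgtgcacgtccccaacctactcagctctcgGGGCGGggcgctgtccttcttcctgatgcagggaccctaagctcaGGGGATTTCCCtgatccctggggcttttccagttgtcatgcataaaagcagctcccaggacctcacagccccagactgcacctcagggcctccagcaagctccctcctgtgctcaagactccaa
Ccl20, chr9:91836909-91837208, plus strand: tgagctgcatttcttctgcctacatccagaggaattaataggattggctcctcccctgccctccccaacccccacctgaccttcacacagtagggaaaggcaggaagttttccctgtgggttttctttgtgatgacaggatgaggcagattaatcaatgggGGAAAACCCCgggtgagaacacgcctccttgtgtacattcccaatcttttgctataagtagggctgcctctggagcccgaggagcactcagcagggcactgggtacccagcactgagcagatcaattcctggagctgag

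The Cxcl14 window was rich in G and C (64.7%) and held 26 CG dinucleotides, against medians of 51.7% and 7 over 33469 promoter windows. It contained 3 GC boxes, beginning 158, 146 and 22 bases before the start (at -158, -146 and -22), and 1 AP-1 match at -99, and no match to the TATA box or the NF-kappaB consensus. The Cxcl2 window held 1 GC box at -119 and 2 overlapping NF-kappaB matches from -74 and -73, and that of Cxcl1 held 2 overlapping NF-kappaB matches from -84 and -83. Ccl20 had 3 CG dinucleotides and 1 NF-kappaB match at -89. The Cxcl12 window, like that of Cxcl14, had 3 GC boxes and no NF-kappaB match, with 23 CG dinucleotides. A GC box was found in 33.1% of all windows, an AP-1 match in 7.33%, a TATA box in 14.2% and the NF-kappaB consensus in 4.18%. None of the 5 windows held TATAAA. A match of letters is a description of the window and not a binding site.

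Among the 7 members with a named probe set, Cxcl14 alone was above noise on every array. Its brighter probe set, rc_AA874803_g_at, read 11662, 14972 and 8881 units in high corn oil replicates 1 to 3 and 23526, 18125 and 29914 in low corn oil replicates 1 to 3. Every high corn oil array was below every low corn oil array. These intensities were 5.09 to 9.46 times the noise of their own array under the high diet and 17.2 to 24.6 times under the low diet. The second probe set, rc_AA874803_at, which represents the same cDNA, read 6647, 12416 and 7232 against 12170, 9468 and 13956. Here the groups overlapped, because high corn oil replicate 2 was above low corn oil replicates 1 and 2.

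**Figure D1:**
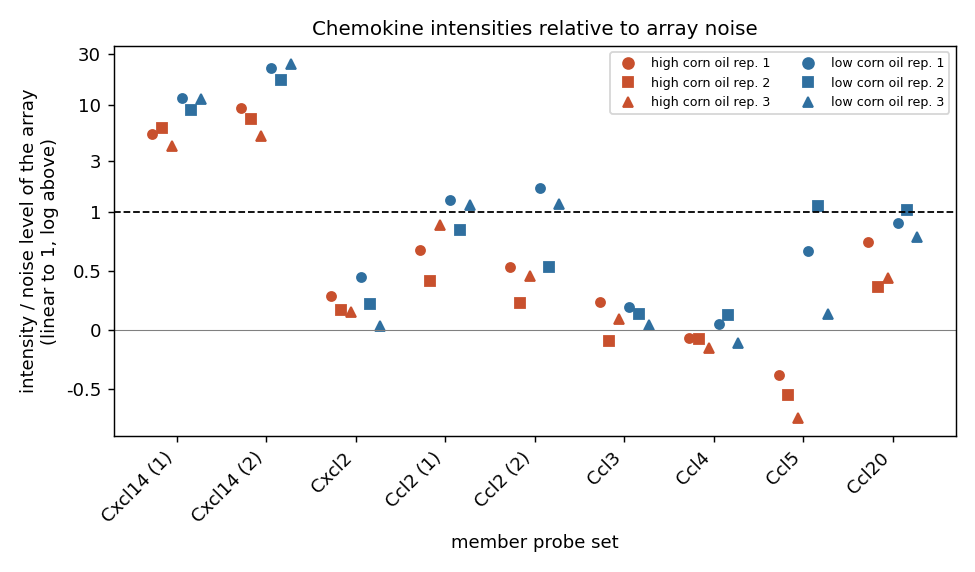
Intensity of each of the 9 member probe sets on each array, divided by that array's noise level (dashed line at 1; the axis is linear up to 1 and logarithmic above). Cxcl14 (1) is rc_AA874803_at and Cxcl14 (2) rc_AA874803_g_at; only these 2 lie above the line on all 6 arrays, and since noise was highest on 2 high corn oil arrays the division widens diet gaps.

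The mean of the brighter Cxcl14 probe set was 11839 ± 3049 (SD, n = 3) under the high diet and 23855 ± 5902 under the low diet, 50.4% lower. On the log2 scale after addition of a pseudocount of 156.1 units, the high minus low difference was -1.003 ± 0.25 (SE from limma). In bulk tissue, fewer cells of a type and less RNA per cell cannot be told apart. The second probe set averaged 8765 ± 3175 against 11864 ± 2260, a log2 difference of -0.47 ± 0.27. Both readings of the gene were lower under high corn oil, but the size differed by 0.53 on the log2 scale between 2 probe sets of one transcript. In 226 such pairs (a probe set and its companion ending in _g_at, both above noise on all arrays), the median disagreement was 0.17, and 17 pairs (7.52%), Cxcl14 included, disagreed at least as much. Cxcl14 was chosen on the diet gap of its brighter probe set, which favours such a disagreement, so its place among the pairs is a description.

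**Figure D2:**
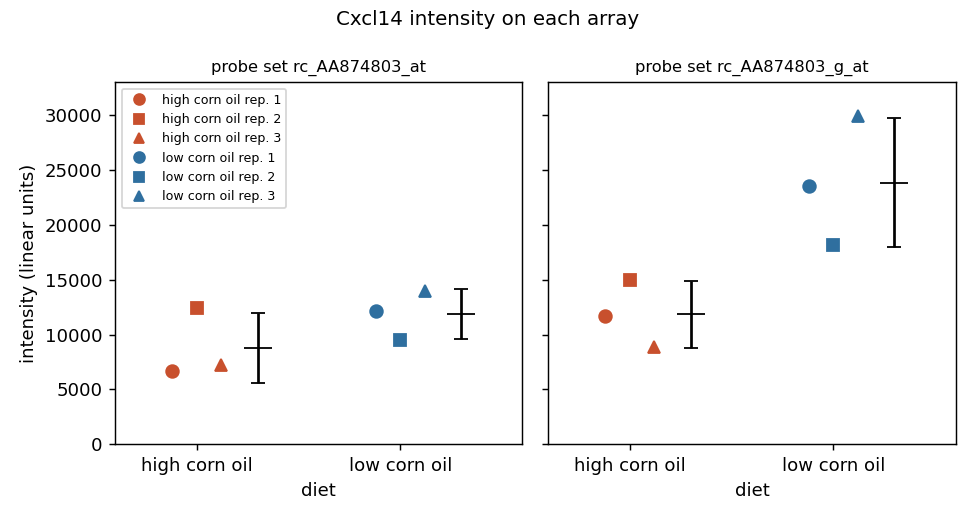
Cxcl14 intensity in linear units from 0 for both probe sets, 1 point per array, with the mean and SD (n = 3) of each diet in black. The diets are apart for rc_AA874803_g_at (8881 to 14972 against 18125 to 29914) and overlap for rc_AA874803_at.

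The ratio of the brighter to the dimmer Cxcl14 probe set was 1.75 in high corn oil replicate 1 and 1.93, 1.91 and 2.14 under the low diet, but 1.21 and 1.23 in high corn oil replicates 2 and 3. Centred on its mean over the arrays, the log2 ratio was -0.46 and -0.43 on those 2 arrays, where the 226 pairs had medians of -0.03 and -0.06 and an SD of 0.32 on each. In low corn oil replicate 3 it was 0.37, with a median of 0.01 and an SD of 0.26 over the pairs. These ratios use the values on which Cxcl14 was chosen, so they too are a description. Over the arrays the 2 Cxcl14 probe sets had a Pearson correlation of 0.850 (6 arrays, log2 scale, given as a description).

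Spike-in level, the signal of bacterial controls added to every hybridization, split the arrays across diets, with replicate 1 of each diet and low corn oil replicate 2 on the high side. Among these 3 arrays the brighter Cxcl14 probe set differed by -0.82 on the log2 scale between 1 high and 2 low corn oil arrays. Among the other 3 it differed by -1.36 between 2 high arrays and 1 low array. The dimmer probe set differed by -0.68 and -0.55. For the brighter probe set the sign was fixed by the choice of Cxcl14, and each of these values rests on 1 array in one arm. Leaving out high corn oil replicate 1 put the brighter probe set at -1.01. Moving high corn oil replicate 3 to the low group, as its description has it, put it at -0.47. For the dimmer probe set, leaving out high corn oil replicate 1 gave -0.30 and leaving out replicate 2 of that diet gave -0.74.

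Of the inducible CC chemokines, Ccl2 and Ccl20 passed the filter on mean intensity, though above noise on few arrays, and neither passed the test. Ccl2 (MCP-1), the main attractant of monocytes, read 838, 845 and 1549 units under the high and 1360, 887 and 1403 under the low diet with probe set X17053cds_s_at. With X17053mRNA_s_at it read 659, 459 and 793 against 1737, 561 and 1427. The groups overlapped for both, and each probe set was above noise on 2 of 6 arrays, low corn oil replicates 1 and 3. The log2 differences were -0.18 ± 0.30 (SE; 95% interval -0.88 to 0.52; limma adjusted p = 0.808) and -0.72 ± 0.40 (-1.66 to 0.21; limma adjusted p = 0.527). Both intervals include 0. Leaving out 1 array at a time moved the first from -0.44 (without high corn oil replicate 3) to -0.05 (without replicate 1 or 2 of that diet), and the second from -1.15 (without low corn oil replicate 2) to -0.45 (without low corn oil replicate 1). With array weights they were 0.18 and -0.28, so the direction of the first was not stable.

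Ccl20 (MIP-3 alpha), the ligand of Ccr6 that draws in dendritic cells and Th17 cells, read 917, 745 and 761 under the high diet. Under the low diet it read 951, 1094 and 959. The groups did not overlap, but only low corn oil replicate 2 was above noise. Its high corn oil mean was 808 ± 95.1 (SD, n = 3) and its low corn oil mean 1001 ± 80.3. The log2 difference was -0.27 ± 0.21 (SE; 95% interval -0.75 to 0.22; limma adjusted p = 0.625). Against a lower bar, the 95th percentile of 23 control probe sets for transcripts of other species, Ccl20 and X17053cds_s_at of Ccl2 were above it on all 6 arrays and X17053mRNA_s_at on 5.

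The remaining inducible members did not pass the filter. Cxcl2 (MIP-2), an attractant of neutrophils, read 353, 341 and 262 under the high and 468, 230 and 43 under the low diet, below noise on every array. Ccl3 (MIP-1 alpha) read 291, -188 and 162 against 209, 146 and 54. Ccl4 (MIP-1 beta), an attractant of monocytes and T cells, was at or below 0 on all 3 high corn oil arrays and on 1 low corn oil array. Both were below noise on all 6 arrays, so their levels have no order here.

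Ccl5 (RANTES), an attractant of T cells and monocytes, had the widest gap in raw units among the dim members. It was at -466, -1105 and -1300 under the high diet and at 701, 1183 and 167 under the low diet, with no overlap. Only low corn oil replicate 2 was above noise, all 3 high corn oil values were below 0, and the mean over the arrays was too low for the filter, so no fold is given. The most negative readings were on high corn oil replicates 2 and 3, the 2 arrays with the highest noise. The part of noise in the gap was not tested. A second chemokine probe set, rc_AA800602_s_at of Cx3cl1, had the same form, below 0 on all 3 high corn oil arrays and at 815, 565 and 1369 under the low diet.

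Of the 9 member probe sets, 5 passed the filter on mean intensity and stood for Cxcl14, Ccl2 and Ccl20. Cxcl14 was chosen for being lower, so its 2 probe sets are no evidence of a shared direction. The 3 of Ccl2 and Ccl20 were at -0.72, -0.18 and -0.27, each above noise on only 1 or 2 arrays, and the median of all 5244 tested probe sets was 0.03 (2829 higher, 2415 lower). limma called 0 of the 5 at an adjusted p under 0.05, and 0% of all tested probe sets. Before adjustment, 522 of the tested probe sets had p under 0.05 in limma, none of them for Ccl2 or Ccl20. Groups that did not overlap, with the high diet lower, were found for 2 of the 5 (Cxcl14, which was chosen on this, and Ccl20) and for 6.71% of tested probe sets; the opposite order was found for 0 of the 5 and for 8.83%. When high corn oil replicate 1 was left out, 214 of the 5244 probe sets passed in limma, none of them a member.

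**Figure D3:**
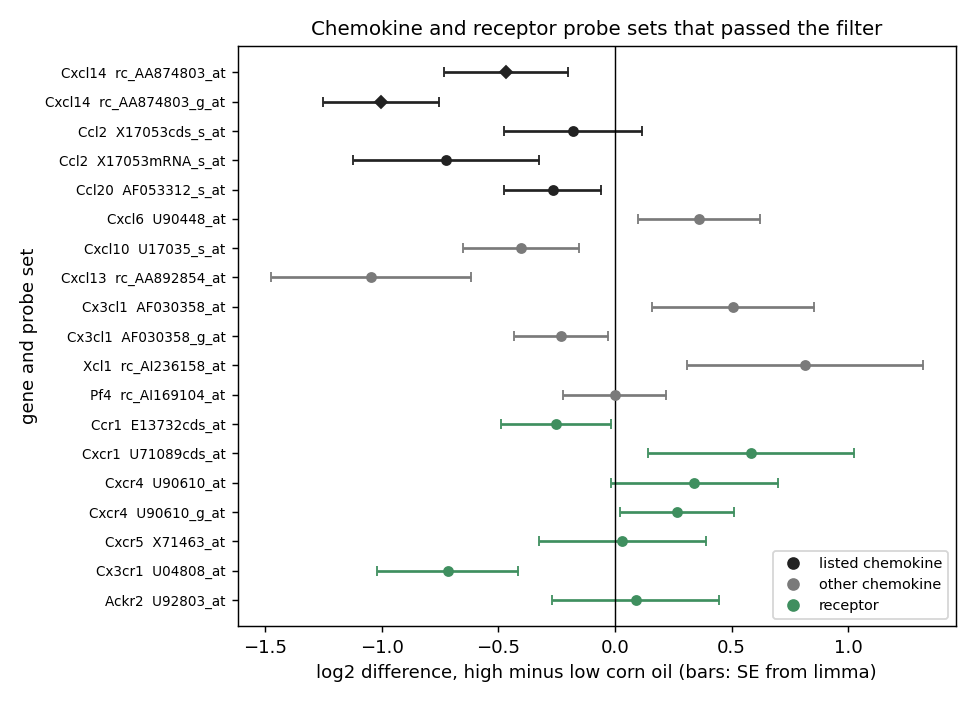
Log2 difference, high minus low corn oil, with its SE from limma for the chemokine and chemokine receptor probe sets that passed the filter; diamonds mark Cxcl14, shown as a description. The listed chemokines run from -1.003 to -0.18, but Cxcl14 was chosen for being lower. Those of Ccl2 and Ccl20 were above noise on only 1 or 2 arrays, with 95% intervals that include 0. Other chemokines and receptors lie on both sides of 0, and none of the probe sets shown passed limma's adjusted threshold.

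Other chemokines on the array went both ways. Of 25 listed genes 8 had a probe set and 6 were tested, of which 2 were higher and 4 lower (median -0.12, with 1 probe set per gene) and 0 passed limma's adjusted threshold. Above noise on all 6 arrays were Cx3cl1 (fractalkine), a membrane-bound attractant of monocytes, and Pf4 (Cxcl4), the platelet chemokine. Pf4 read 1908, 3163 and 2509 under the high and 2898, 2293 and 2287 under the low diet, a log2 difference of -0.00057 ± 0.22 (SE; 95% interval -0.52 to 0.52; limma adjusted p = 0.999). Cx3cl1 was at 0.51 ± 0.35 with AF030358_at and at -0.23 ± 0.20 with AF030358_g_at (limma adjusted p = 0.579 and 0.652), so its probe sets did not share a direction. Cxcl13, the B cell attractant, was above noise on 4 arrays only and read 666, 1295 and 2368 against 3796, 3078 and 1914. Its groups overlapped, with a log2 difference of -1.05 ± 0.43 (limma adjusted p = 0.494). Cxcl10, above noise on 3 arrays, read 632, 1038 and 1120 against 1381, 1151 and 1226, at -0.40 ± 0.25 (limma adjusted p = 0.549). It was the 1 of the 6 tested genes with groups apart and the high diet lower, an order found for 6.71% of all tested probe sets. The 2 genes with a higher mean were the neutrophil attractant gene Cxcl6, above noise on 5 arrays, at 0.36 ± 0.26 (limma adjusted p = 0.600), and the lymphocyte attractant gene Xcl1, above noise on none, at 0.81 ± 0.51 (limma adjusted p = 0.550). Cxcl13, Cxcl10, Cxcl6, Xcl1 and the receptor genes Cx3cr1 and Ackr3 were named after their values were seen. So were Tnf, Il1rn, Sod2, Cd14, Sbp and the mast cell genes below.

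Among receptors, 11 of 24 listed genes had a probe set and 6 were tested, with 4 higher, 2 lower, a median of 0.06 and 0 past limma's adjusted threshold. Cxcr4, the receptor of Cxcl12, was the one receptor gene above noise on all arrays. With U90610_at it read 2320, 3432 and 4092 under the high and 2053, 1733 and 4306 under the low diet, a log2 difference of 0.34 ± 0.36 (SE; limma adjusted p = 0.703). With U90610_g_at it was at 0.27 ± 0.24 (limma adjusted p = 0.668). The remaining Cxcr4 probe set was below noise on every array. The fractalkine receptor gene Cx3cr1, carried by monocytes and tissue macrophages, read 315, 630 and 364 against 827, 646 and 928, below noise on all arrays, at -0.72 ± 0.30 (limma adjusted p = 0.494). Ackr3, the scavenging receptor of Cxcl12, was below noise on every array and at or below 0 on all but 1.

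The list of inflammatory cytokines and NF-kappaB targets was mostly dim. Of 27 listed genes 21 had a probe set, 14 were tested and 3 were above noise on all arrays. Of the 14, 5 were higher and 9 lower, with a median of -0.10 and 0 past limma's adjusted threshold. Nfkb1, which encodes the p105 precursor of the NF-kappaB p50 subunit, read 2540, 2476 and 3012 under the high and 3474, 3793 and 3537 under the low diet. The groups were apart, which was the rule for naming it here, with a log2 difference of -0.41 ± 0.15 (SE, limma adjusted p = 0.480). Groups apart with the high diet lower were found for 1 of the 14 and for 6.71% of all tested probe sets. The other genes of this list above noise on all arrays, Sod2 and Cd14, had overlapping groups. Sod2 was at 0.47 ± 0.29 and Cd14 at -0.07 ± 0.36, with its second probe set at 0.19 ± 0.36. The brightest probe sets of Tnf and Il1rn were at or below 0 on every array.

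Most cell type marker lists had a median below 0, and none had a member past limma's adjusted threshold. Of 10 tested fibroblast markers 9 were lower under the high diet, with a median of -0.57, and their summed intensity was 104107 to 121250 units under the high and 125841 to 161240 under the low diet. Of 7 tested macrophage and myeloid markers 6 were lower (median -0.63), with sums of 37886 to 60712 against 56986 to 62745. Prostate secretory epithelium markers had 6 of 9 lower (median -0.04) and sums of 213681 to 301186 against 284726 to 314146. Groups apart with the high diet lower were found for 6 of 10 fibroblast, 4 of 7 macrophage and myeloid and 0 of 9 secretory markers. The share over all tested probe sets was 6.71%. By its brightest probe set, no fibroblast or macrophage marker was at or below 0 on all arrays. Mast cell markers summed to 6257 to 8694 against 10053 to 12932, with 2 of 4 tested lower and 2 higher. The protease gene Mcpt1l1, above noise on 5 arrays, read 2308, 2230 and 909 under the high and 6665, 4786 and 5272 under the low diet. It was at -1.62 ± 0.34, was the 1 tested mast cell gene with groups apart, and is part of the sums. Cma1 was at -0.98 ± 0.71. Tpsb2, the one tested mast cell marker above noise on all arrays, was at 0.16 ± 0.19 and Tpsab1 at 0.24 ± 0.28. Hdc and Mcpt4 were at or below 0 throughout. T and NK cell markers summed to 7647 to 9959 against 10197 to 11639, with 3 of 6 lower (median -0.08). Those sums include Thy1, which is also on the fibroblast list and read 2922, 2619 and 1846 against 4824, 3510 and 4965. Of the 13 genes with a probe set it was the 1 above noise on all arrays, and the 1 tested gene with groups apart. Smooth muscle markers had 8 of 9 lower (median -0.28; sums of 145080 to 189015 against 176296 to 220774), and skeletal muscle markers 7 of 7 (median -0.30; 15781 to 35309 against 25949 to 31648). Basal epithelium markers had 2 of 4 lower (median -0.17), endothelium 1 of 3 (0.28), neutrophils 2 of 2 (-0.36) and B and plasma cells 1 of 2 (0.29). Above noise on all arrays were 1 of 9 skeletal muscle genes with a probe set and 1 of 2 for B and plasma cells. For endothelium and neutrophils it was 0 of 5 each. For skeletal muscle, endothelium and neutrophils the directions rest mostly on dim probe sets. The part of any cell type in the Cxcl14 difference was not tested. Pbsn read 19851 and 21926 in high corn oil replicates 2 and 3 but 99574 in replicate 1, against 78113 to 82039 under the low diet. Sbp, of the same secretory list, went the other way, at 45313 and 53056 in replicates 2 and 3 but 1891 in replicate 1. Under the low diet Sbp read 39729, 6801 and 12179.

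The pattern of Cxcl14 over the 6 arrays was compared with 1450 genes that were tested and above noise on every array. The 5 genes with the highest Pearson correlation with the brighter probe set (log2 scale) were Hprt1, the purine salvage enzyme (0.969), Tprg1l (0.964), the calcium-dependent phospholipid-binding protein gene Anxa4 (0.962), the fibroblast surface glycoprotein gene Thy1 (0.952) and Fstl1, a secreted glycoprotein of mesenchymal cells (0.946). Since Cxcl14 was chosen for its diet difference, genes with a like difference rank high by construction. With the diet means removed, the correlations were 0.880, 0.894, 0.977, 0.815 and 0.820 in the same order. With the dimmer Cxcl14 probe set they were 0.938 for Anxa4 and 0.679 to 0.746 for the other 4. Neither set of values is a separate check. The 5 genes were picked from 1450 on the same 6 values, and the dimmer probe set itself correlated at 0.850 with the brighter. Anxa4 read 3990, 5295 and 3459 under the high and 5650, 4905 and 6764 under the low diet, so its groups overlapped, while those of the other 4 did not. All points share the same 6 arrays and their scaling.

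**Figure D4:**
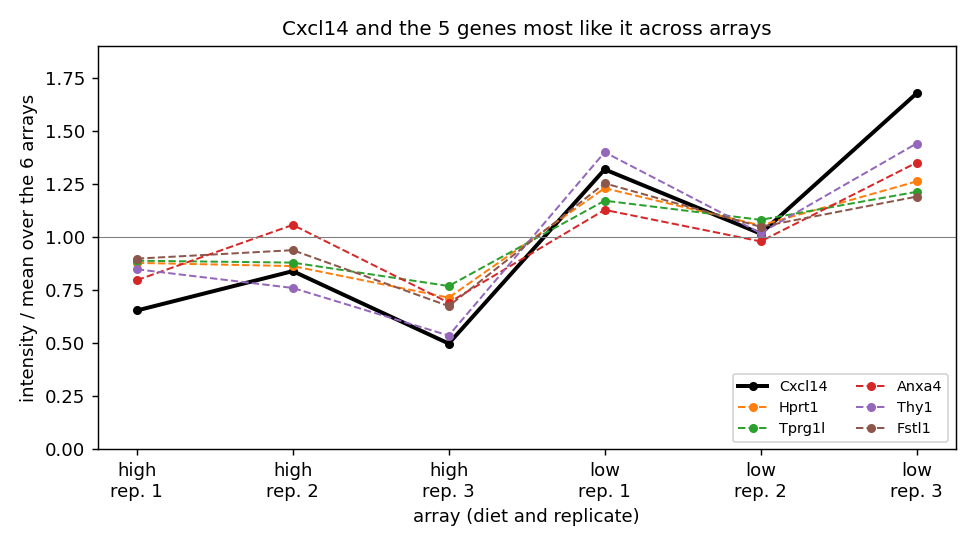
Intensity on each array divided by the mean over the 6 arrays, for Cxcl14 (rc_AA874803_g_at, black) and the 5 genes with the highest Pearson correlation with it (0.946 to 0.969). Replicates have no order; the lines only join the values of one gene, and Cxcl14 has the widest range of the 6 genes shown.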

How the data were processed

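Per the labels' protocols, Trizol was used for extraction and 6 ug of total RNA per dorsolateral prostate went into labelled cRNA for 6 short-oligonucleotide rat arrays. The deposited values are intensity values on a linear scale, scaled by the authors, and 18.6% to 23.1% of each array's values are at or below 0. MAS5 is the one tool in the submitters' processing notes, with version, settings and the subtraction step not given in the sources used here. The algorithm that gave the values below 0 is therefore not known, and the noise level rests on those values. Intensity from arrays carries no read depth, and 3 arrays per diet limit the precision.

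Probe sets were named from the platform annotation through gene identifiers to GRCr8 symbols: of 8799 probe sets, 59 were controls, 7006 had 1 gene (6985 renamed through the identifier) and 308 several, and none was named from several. The remaining probe sets are unnamed here. Values below 0 were set to 0 and transformed as log2(value + 156.1), the pseudocount being the median of all values divided by 4, which understates the change of dim genes. Probe sets with a mean of at least 343 units, the 40th percentile, were tested (5244) with limma 3.58.1 in R 4.3.3 (lmFit, eBayes with an intensity trend, two-sided, no covariate), with Benjamini-Hochberg adjustment over all of them and a threshold of 0.05. The fit was run on simulated log2 values drawn independently for each array. That check does not cover arrays that stand apart or values at or below 0.

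Members, gene lists and alternatives were chosen with earlier results of these data known. Named genes were the members, chemokine and receptor probe sets above noise on all arrays, inflammatory genes also with groups apart, and the 5 genes most correlated with Cxcl14. Marker genes were named for the tissue check, and the report says which other genes were named after their values were seen. For a list, the probe set with the highest mean stood for a gene.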

Additional observations from a re-analysis of the deposited data

How the results depend on the processing

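The log2 difference of the brighter Cxcl14 probe set ran from -1.19 to -0.47 over 17 alternative settings; its sign when an array was left out was fixed by how the gene was chosen. It moved by more than the spread between replicates in 1 of them, at -0.47 when high corn oil replicate 3 was moved to the low group. Leaving out 1 array at a time gave -1.19 to -0.82, and the mean of both probe sets gave -0.74. With other noise levels, member probe sets above noise on all 6 arrays were 5 with the 40th percentile of each array (adding both of Ccl2 and that of Ccl20), 4 with control probe sets of other species (adding Ccl20 and 1 of Ccl2), and 2 in every leave-one-out setting. Among members, limma called 0 in every setting, leave-one-out settings included (0 to 0). Over all probe sets the count was 9 with no filter and ran from 0 to 214 when 1 array was left out, the latter without high corn oil replicate 1. Ccl2 with X17053cds_s_at turned to 0.18 with array weights; the cause was not tested. Ccl20 and X17053mRNA_s_at of Ccl2 were too dim for the filter at the 60th percentile and have no value there. With the replicate number as a block, limma called 0 probe sets and Cxcl14 stayed at -1.003. Same-numbered arrays had residual correlations of -0.05, -0.20 and 0.18, so the numbers were not read as pairs. Low signal over noise limits all members with a named probe set but Cxcl14.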
